A study of Mus musculus with 16 samples.

Results

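The genes described here encode the variable (V) segments of immunoglobulin light chains: every gene whose symbol starts with Igkv (kappa) or Iglv (lambda) and that had at least 1 count over 16 tumors. Of the 22298 genes counted, 103 carried such a symbol, and 88 of these had a count, 85 kappa and 3 lambda. The other 15, all kappa, were at 0 in every tumor. The rule used no difference between groups. Tumors came from 615-line mice of 6 weeks that had been given 500000 mouse forestomach carcinoma (MFC) cells, a gastric cancer line syngeneic to that strain, into the peritoneal cavity. The vehicle group (8 tumors, labelled control) received PBS and the IL-33 treatment group (8 tumors) received the cytokine IL-33 at 20 μg/kg intraperitoneally every 2 days, and the comparison asks how IL-33 changed gene expression in whole tumor tissue. No transgene or deletion is named for either group, and MFC cells are the tumor graft in all tumors. The methods give 4 or 5 mice per group for this model while 8 tumors per group were sequenced, and the labels do not tie tumors to mice, so tumors of a group may share a mouse and p-values measure the spread between tumors.

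A B cell builds its light chain by joining 1 of many V genes to a J segment, which is spliced to a constant gene. In mice most light chains are kappa, from a locus on chromosome 6 that holds 100 of the 103 V genes listed, and few are lambda, from chromosome 16. Each B cell keeps 1 productive light chain, and plasma cells, its antibody-secreting descendants, fill much of their mRNA with it, so a few large families of plasma cells can make 1 V gene dominate the light-chain reads of a tissue. Dominance of a V gene is not the same as dominance of a clone, because unrelated clones can use the same V gene, and counts per gene hold neither the junction nor the joining segment. The 8 J genes of the list used (Igkj1 to Igkj5 and Iglj1 to Iglj3) and the constant gene Iglc4 were at 0 in all tumors.

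The sequences that follow are the last 240 bases of the V exons of the 6 genes that held the most light-chain V counts in at least 1 tumor (Igkv1-135, Igkv10-96, Igkv1-117, Igkv1-110, Igkv15-103 and Igkv8-24), of Igkv3-7, which had the second smallest p between groups, and of Iglv1, the most abundant lambda V gene. They were read from the GENCODE M21 transcripts of GRCm38, so they are the reference alleles and not those of the 615 strain. Capitals mark the germline start of the third complementarity-determining region, the bases after the codon of the conserved second cysteine, which the V gene contributes to the junction.
Igkv1-135: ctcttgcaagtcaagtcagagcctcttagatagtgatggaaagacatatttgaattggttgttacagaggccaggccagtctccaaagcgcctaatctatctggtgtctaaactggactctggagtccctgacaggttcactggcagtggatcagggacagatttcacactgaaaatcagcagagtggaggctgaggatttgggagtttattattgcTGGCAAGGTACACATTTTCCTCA
Igkv10-96: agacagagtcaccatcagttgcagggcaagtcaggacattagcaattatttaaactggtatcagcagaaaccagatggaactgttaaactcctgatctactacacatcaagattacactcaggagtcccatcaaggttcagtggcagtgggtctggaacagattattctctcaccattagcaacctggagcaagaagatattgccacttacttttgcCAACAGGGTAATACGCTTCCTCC
Igkv1-117: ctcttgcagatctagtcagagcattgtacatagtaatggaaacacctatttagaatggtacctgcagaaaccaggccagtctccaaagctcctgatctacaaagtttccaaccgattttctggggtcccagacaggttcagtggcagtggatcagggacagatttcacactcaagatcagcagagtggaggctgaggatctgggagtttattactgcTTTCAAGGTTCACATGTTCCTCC
Igkv1-110: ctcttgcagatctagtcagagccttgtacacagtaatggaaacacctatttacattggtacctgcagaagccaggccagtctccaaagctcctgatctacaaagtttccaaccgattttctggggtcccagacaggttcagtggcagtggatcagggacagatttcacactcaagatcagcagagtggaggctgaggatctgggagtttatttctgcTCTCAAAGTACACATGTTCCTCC
Igkv15-103: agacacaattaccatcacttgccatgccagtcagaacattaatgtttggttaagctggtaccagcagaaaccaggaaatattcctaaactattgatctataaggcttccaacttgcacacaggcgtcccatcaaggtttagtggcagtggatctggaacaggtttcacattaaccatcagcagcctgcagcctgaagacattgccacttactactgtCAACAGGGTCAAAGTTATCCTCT
Igkv8-24: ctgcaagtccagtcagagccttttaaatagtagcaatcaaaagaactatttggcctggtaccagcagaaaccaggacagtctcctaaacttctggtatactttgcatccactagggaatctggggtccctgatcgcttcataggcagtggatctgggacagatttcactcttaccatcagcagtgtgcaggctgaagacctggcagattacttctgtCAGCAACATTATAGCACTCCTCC
Igkv3-7: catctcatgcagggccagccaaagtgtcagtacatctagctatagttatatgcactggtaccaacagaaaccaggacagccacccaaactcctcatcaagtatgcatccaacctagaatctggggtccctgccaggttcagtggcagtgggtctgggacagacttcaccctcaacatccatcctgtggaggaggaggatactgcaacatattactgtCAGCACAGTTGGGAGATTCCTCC
Iglv1: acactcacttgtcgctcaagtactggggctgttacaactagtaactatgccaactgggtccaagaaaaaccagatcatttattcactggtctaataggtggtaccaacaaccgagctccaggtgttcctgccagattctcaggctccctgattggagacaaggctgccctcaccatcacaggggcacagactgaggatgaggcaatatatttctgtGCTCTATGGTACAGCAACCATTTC
The printed stretches lie at chr6:67610269-67610508, plus strand (Igkv1-135), chr6:68631963-68632202, minus strand (Igkv10-96), chr6:68121588-68121827, plus strand (Igkv1-117). Those of the next 3 genes are at chr6:68271028-68271267, plus strand (Igkv1-110), chr6:68437686-68437925, plus strand (Igkv15-103), chr6:70216858-70217097, minus strand (Igkv8-24). The last pair is at chr6:70607797-70608036, plus strand (Igkv3-7) and chr16:19085017-19085256, minus strand (Iglv1). The capitals run for 23 bases in each kappa exon and 24 in Iglv1. Igkv1-117 and Igkv1-110 differed at 10 of 313 bases (96.8% identical) and Iglv1 and Iglv2 at 9 of 305 (97.0%), whereas Igkv1-135 was 79.9% identical to Igkv1-117. Of the 88 genes, 43 had another light-chain V gene at least 95% identical to them, so the counts of these single genes are uncertain where reads fit 2 copies. Of the 15 genes at 0, 6 had such a copy. Iglv1 and 1 kappa gene also overlap another annotated gene, and the use of strand in counting is not given in the sources used here.

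Light-chain V reads were present in all 16 tumors, at levels that spanned more than 2 orders of magnitude. Total counts per tumor lay between 14139268 and 24290794 for vehicle and between 16569613 and 24288893 for IL-33, so depth differed far less than the V counts did. Together the 88 genes held 35498 counts. In vehicle replicates 1 to 8 their sum was 52, 2754, 1809, 67, 99, 79, 523 and 406 counts, and in IL-33 replicates 1 to 8 it was 684, 171, 1573, 10245, 3939, 24, 4329 and 8744. Relative to the total count this was 2.57, 169, 89.4, 4.74, 6.99, 4.87, 29.9 and 16.7 CPM (counts per 1000000 counts of the tumor) in the vehicle tumors. The IL-33 tumors had 31.1, 10.3, 86.0, 599, 216, 1.30, 247 and 360.0 CPM. IL-33 replicates 4, 5, 7 and 8 lay above every vehicle tumor, and IL-33 replicate 6 lay below every vehicle tumor, so the groups overlapped. The mean was 40.5 ± 59.3 CPM (SD, n = 8) in vehicle tumors against 194 ± 208 CPM (SD, n = 8) in IL-33 tumors, with medians of 11.9 and 151 CPM. On the log2(CPM + 0.5) scale the means were 4.03 ± 2.09 and 6.14 ± 2.87, a difference of 2.11 that is given without a test because it is a score over chosen genes. Leaving out any 1 tumor kept it between 1.67 and 2.86. In bulk tissue, more B-lineage cells and more light-chain RNA per cell cannot be told apart.

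**Figure D1:**
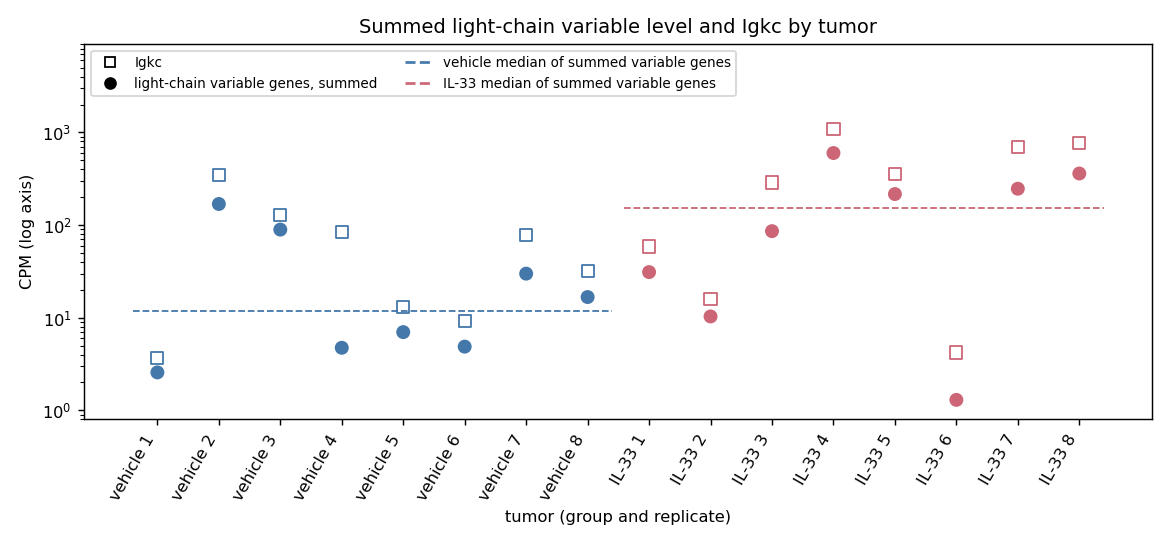
Summed CPM of the 88 light-chain V genes (filled circles) and CPM of the constant gene Igkc (open squares) in each of 16 tumors, on a log axis, with dashed lines at the group medians of the summed V level (11.9 CPM vehicle, 151 CPM IL-33). The V level and Igkc run side by side except in vehicle replicate 4, where 4.74 CPM of V reads stood beside 83.6 CPM of Igkc.

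The constant genes gave a second reading of the same transcripts. Igkc, the kappa constant gene, had 3.66 to 350 CPM in the vehicle group (mean 87.2 ± 115, SD, n = 8) and 4.22 to 1085 CPM in IL-33 tumors (408 ± 401, SD, n = 8). Its log2 fold change was 2.06 (SE 0.97, edgeR unadjusted p = 0.0485, adjusted p = 0.443 over all genes, exact permutation p = 0.144), and 6 of 8 IL-33 tumors were above the vehicle median. This unadjusted p was above 0.05 in 12 of the 16 fits that left out 1 tumor, reaching 0.106 without IL-33 replicate 4, where the log2 fold change was 1.68. In 15 tumors the ratio of light-chain V to constant counts was between 0.294 and 0.683. Vehicle replicate 4 stood apart with a ratio of 0.0560, from 67 V counts beside 1182 Igkc counts. That tumor also had the lowest TMM factor (0.640 against 0.895 to 1.24 in the others), and any link between these values was not tested.

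Markers of the cells that carry light chains were compared as well. In the B cell list (Ms4a1, Cd79a and 8 more), 0 of 10 genes had an edgeR unadjusted p under 0.05 in either direction, with a median log2 fold change of 0.23. Ms4a1, which encodes CD20, had a log2 fold change of 0.22 (SE 1.19), and Cd79a, a signaling chain of the B cell receptor, 0.52 (SE 1.12). The summed level of this list was 7.59 to 103 CPM in vehicle tumors against 5.41 to 82.9 CPM in IL-33 tumors, with vehicle replicate 2 the highest. In the plasma cell list 5 of 12 genes were higher at this threshold, as were 9.99% of all genes tested, and 0 were lower. Without IL-33 replicate 7, a tumor described below, 5 were higher beside 1.83% of all genes. They were Mzb1, a chaperone of antibody assembly (log2 fold change 3.24, SE 0.98, edgeR unadjusted p = 0.0042), Derl3 (2.87, SE 0.95, edgeR unadjusted p = 0.00753), Jchain, which joins IgA and IgM units (2.65, SE 1.05, edgeR unadjusted p = 0.0215), Pou2af1 (2.07, SE 0.73, edgeR unadjusted p = 0.0114) and the transcription factor Irf4 (1.75, SE 0.61, edgeR unadjusted p = 0.011). The median log2 fold change of the list was 0.82, and the 7 genes without a call had values from -0.38 (Creld2), -0.35 (Fkbp11) and -0.16 (Sdc1) up to 1.36 (Tnfrsf17). None of the 12 was at 0 in all tumors, and 4 of the others, Xbp1, Sdc1, Txndc5 and Creld2, are also expressed by cells that are not plasma cells and held most of the list's summed level of 601 to 980 CPM (vehicle) and 815 to 1313 CPM (IL-33). Of 7 surrogate light chain and recombination genes, 4 were at 0 in all tumors, among them Rag1, which cuts the V genes for joining. Of the 3 tested, 1 was higher at an unadjusted p under 0.05, beside 9.99% of all genes, and 0 were lower. That gene, Dntt, had 7 counts over the vehicle group and 35 over IL-33 tumors, so the filter partly fixed its low vehicle level. Its log2 fold change was 2.09 (SE 0.96, edgeR unadjusted p = 0.0433, adjusted p = 0.429). How far numbers of plasma cells account for the V levels was not tested.

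Of the 88 V genes, 71 had at least 10 counts over the 16 tumors and were tested with edgeR's quasi-likelihood test together with all other genes. By their counts, 46 of the 71 had at least 10 in each group, 18 only in IL-33 tumors, 3 only in vehicle tumors and 4 in neither group alone. At an unadjusted p under 0.05, 20 of the 71 (28.2%) were higher with IL-33, against 9.99% of all 16817 genes tested, and 0 were lower, against 1.17%. After Benjamini-Hochberg adjustment over all genes 0 of the 71 and 0 of all genes (0%) passed, with a smallest adjusted p of 0.418. Of the 20, 12 had at least 10 counts in each group and 8 only in IL-33 tumors, where a low value in the other group is partly fixed by the filter. The median log2 fold change was 1.99 over the 71 V genes and 0.06 over all genes. Of the 71, 59 (83.1%) were positive, against 58.3% of all genes. For the 18 with at least 10 counts only in IL-33 tumors, the filter partly fixed that sign. The 20 were 19 kappa genes and Iglv1, from 14 subgroups, with log2 fold changes of 2.44 to 7.00. No V gene had every IL-33 tumor above every vehicle tumor. IL-33 replicate 6 had the lowest summed V level of all tumors, which made such a separation unlikely, and the same count over all genes was not made. The V genes share their source cells, so their counts are not independent of each other.

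Which tumors entered the comparison moved these counts. IL-33 replicate 7 had 1388 CPM of uterus and oviduct genes (Ovgp1, Pax8 and 4 more) where the other 15 tumors had 10.5 to 22.3 CPM, and 240 CPM of 7 lymphoid stroma genes where the others had 6.11 to 62.0 CPM. Ccl21a, a chemokine of lymph node stroma, made up 182 CPM of that sum and had at most 4.53 CPM in any other tumor. Without it, 22 of 68 V genes were higher at an unadjusted p under 0.05 while 1.83% of all genes were, and 18 of the 20 genes were among the 22. DESeq2 on all tumors called 20 of 71 higher and 0 after adjustment, with 2.52% of all genes higher, and 16 genes were called by both tools. Limma voom with sample weights called 7 higher and 1 lower, with 3.21% and 2.85% of all genes called in those directions, and 0 after adjustment. Without vehicle replicate 2, the vehicle tumor with the most V reads, 37 of 69 were higher (9.17% of all genes), and without IL-33 replicate 4 the number was 14 of 69 (10.6% of all genes).

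The reads were concentrated in few genes. The 10 genes with the most counts held 67.7% of all light-chain V counts, 3 genes (Igkv10-96, Igkv1-117 and Igkv1-110) had a count in all 16 tumors, and 10 genes had counts in 1 tumor only. The 17 genes under 10 counts had 1 to 9 each. In 6 tumors Igkv1-135 held the most counts, in 3 tumors Igkv1-117, in 3 Igkv15-103, in 2 Igkv10-96, and in 1 each Igkv8-24 and Igkv1-110. Scaling counts by exon length left the top gene unchanged in 15 of 16 tumors, with Igkv8-24 replacing Igkv1-117 in vehicle replicate 1.

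**Figure D2:**
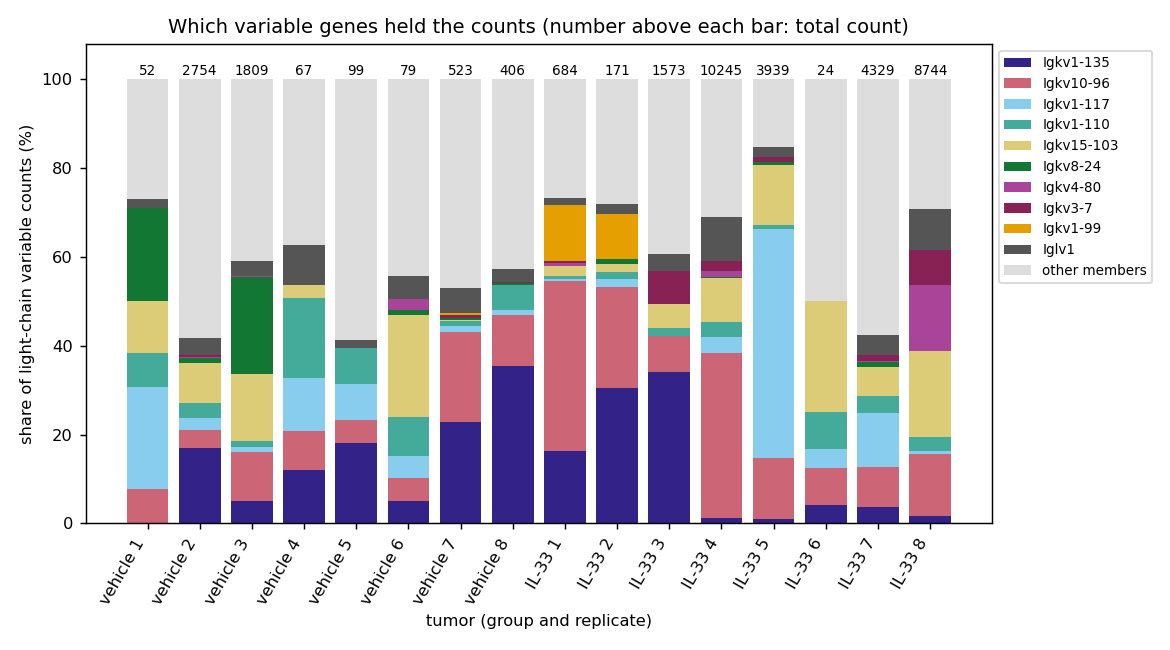
Share of each tumor's light-chain V counts (vertical axis, percent) held by 10 named genes and by all other members, 1 bar a tumor, with the tumor's V count above the bar. Igkv1-117 fills 51.4% of IL-33 replicate 5, Igkv10-96 37.0% of IL-33 replicate 4, and Igkv1-99 is visible in IL-33 replicates 1 and 2.

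In the vehicle tumors the top gene took 17.0% to 35.5% of the V counts. The shares in replicates 1 to 8 were 23.1% (Igkv1-117), 17.0% (Igkv1-135), 22.1% (Igkv8-24), 17.9% (Igkv1-110), 18.2% (Igkv1-135), 22.8% (Igkv15-103), 22.9% (Igkv1-135) and 35.5% (Igkv1-135). In the IL-33 tumors the range was wider, from 12.3% to 51.4%. Replicates 1 to 8 had 38.2% (Igkv10-96), 30.4% (Igkv1-135), 34.1% (Igkv1-135), 37.0% (Igkv10-96), 51.4% (Igkv1-117), 25.0% (Igkv15-103), 12.3% (Igkv1-117) and 19.2% (Igkv15-103). Precision followed the number of reads: the 95% Wilson interval was 49.8% to 53.0% for IL-33 replicate 5 with 3939 counts, and 12.0% to 44.9% for IL-33 replicate 6 with 24 counts, covering counting error only. The mean share was 22.4 ± 5.85% (SD, n = 8) in vehicle tumors against 31.0 ± 12.2% (SD, n = 8) in IL-33 tumors, a difference that a two-sided exact permutation test over 12870 assignments did not place past the threshold (p = 0.0937, adjusted p = 0.328 over 7 measures of composition). For this measure 6 of 8 IL-33 tumors were above the vehicle median and 3 above the vehicle maximum.

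The other measures of dominance went the same way or showed no clear difference. The effective number of genes, the inverse Simpson index, is the number of equally used genes that would give the same concentration. It was 10.1 ± 2.52 (SD, n = 8) in vehicle tumors against 8.08 ± 4.80 (SD, n = 8) in IL-33 tumors (exact permutation p = 0.315, adjusted p = 0.442), with 4 IL-33 tumors below every vehicle tumor and IL-33 replicate 7 above all of them at 18.8. Its lowest value among the 16 tumors was 3.29, for the fifth IL-33 tumor. When IL-33 replicate 7 was left out, the 3 measures that set dominance against evenness over single genes passed the unadjusted threshold, with exact permutation p-values of 0.0186 for the top share (difference 11.2 percentage points), 0.0135 for the effective number (difference -3.58) and 0.0473 for the number of genes in 50 reads (difference -2.60). These p-values were not adjusted, and the share of the top subgroup, given below, did not pass. Without vehicle replicate 8 the difference in top share was 10.4 percentage points (exact permutation p = 0.0423). When IL-33 replicate 5 was left out, the differences were smaller, at 5.61 percentage points of top share (exact permutation p = 0.189), -1.35 in effective number (exact permutation p = 0.514) and -0.77 genes in 50 reads (exact permutation p = 0.550).

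Counts of distinct genes depended on the number of reads. A vehicle tumor had counts on 17 to 75 of the genes (38.9 ± 21.5, SD, n = 8), an IL-33 tumor on 13 to 74 (50.1 ± 21.8, SD, n = 8), which did not differ past the threshold (exact permutation p = 0.313, adjusted p = 0.442). When each tumor was reduced to 50 reads, the expected number was 18.4 ± 1.96 genes (SD, n = 8) in vehicle tumors against 16.8 ± 3.42 genes (SD, n = 7) in IL-33 tumors (exact permutation p = 0.274, adjusted p = 0.442), with IL-33 replicate 6 left out for its 24 reads. Thus the larger mean number of genes seen with IL-33 had the opposite sign at equal read number. Merging genes into subgroups, which removes ambiguity between copies of a subgroup, gave a top subgroup share of 31.5 ± 8.19% and 34.3 ± 12.1% (SD, n = 8 each, exact permutation p = 0.586, adjusted p = 0.684). When each tumor was left out in turn, the exact permutation p of this share stayed between 0.335 and 0.980.

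**Figure D3:**
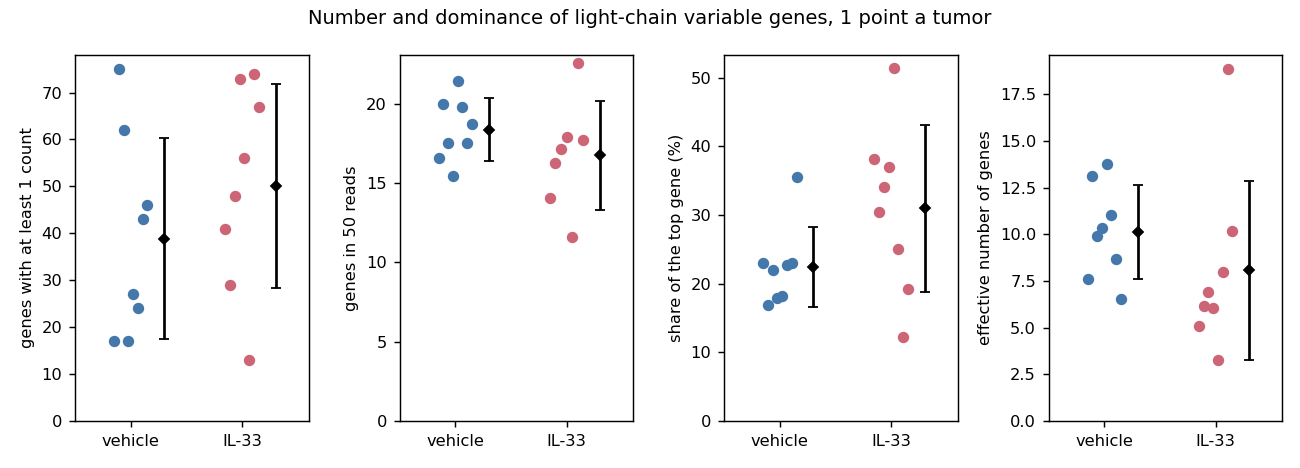
Number of light-chain V genes with a count, expected number in 50 reads, share of the top gene and effective number of genes, 1 point a tumor, with black diamonds and bars for the mean and SD of each group (n = 8, or 7 IL-33 tumors for 50 reads). The groups overlap in all 4 panels, and IL-33 replicate 7 is the highest point for the effective number (18.8).

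Of the 6 genes that led a tumor, Igkv10-96 had the smallest p between the groups. It had 0.198, 6.99, 9.93, 0.424, 0.353, 0.247, 6.00 and 1.93 CPM in vehicle replicates 1 to 8. In IL-33 replicates 1 to 8 it had 11.9, 2.35, 6.89, 222, 29.9, 0.108, 22.3 and 50.2 CPM. In all, 7 of 8 IL-33 tumors were above the vehicle median and 5 above the vehicle maximum. The means were 3.26 ± 3.83 and 43.2 ± 74.1 CPM (SD, n = 8 each), with a log2 fold change of 3.64 (SE 1.11, edgeR unadjusted p = 0.00432, adjusted p = 0.418, exact permutation p = 0.0311 on log2(CPM + 0.5)). The single tumor IL-33 replicate 4 held 59.7% of this gene's CPM, and in its absence the log2 fold change was 2.39. It was also among the 3 leading genes in 10 of 16 tumors, and its mean share of V counts was 9.21 ± 5.21% in vehicle tumors against 18.9 ± 12.5% in IL-33 tumors.

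Igkv1-117 was carried by a few tumors. Its level was 0.165 to 4.48 CPM in the vehicle group (median 0.565) and 0.0541 to 111 CPM in IL-33 tumors (median 1.51), with 22.5 CPM in IL-33 replicate 4, 111 in replicate 5 and 30.3 in replicate 7, while the other 5 IL-33 tumors had 2.84 CPM or less. Only 4 of 8 IL-33 tumors were above the vehicle median. The log2 fold change was 4.35 (SE 1.37, edgeR unadjusted p = 0.00561, adjusted p = 0.418), the exact permutation test gave p = 0.171, and without IL-33 replicate 5 the log2 fold change was 2.76. With voom it was 1.01 (unadjusted p = 0.456). Its near copy Igkv1-110 had 36 counts in IL-33 replicate 5, where Igkv1-117 had 2025, but 349 beside 385 in IL-33 replicate 4. Over all tumors Igkv1-110 had a log2 fold change of 1.99 (SE 0.96, edgeR unadjusted p = 0.0536, adjusted p = 0.456), and its unadjusted p was under 0.05 in 5 of the 16 fits that left out 1 tumor.

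Igkv15-103 and Igkv1-135 did not pass the threshold. Igkv15-103 ranged from 0 to 15.1 CPM in vehicle tumors, while IL-33 tumors had 0.181 to 69.2 CPM, with a log2 fold change of 2.52 (SE 1.32, edgeR unadjusted p = 0.0735, adjusted p = 0.502). Without vehicle replicate 2 its log2 fold change was 3.29 (edgeR unadjusted p = 0.0346) and without vehicle replicate 3 it was 3.18 (edgeR unadjusted p = 0.0412). Igkv1-135, the leading gene of 4 vehicle and 2 IL-33 tumors, had means of 6.00 ± 9.53 and 7.77 ± 9.18 CPM (SD, n = 8 each) and a log2 fold change of 0.35 (SE 0.99, edgeR unadjusted p = 0.727, adjusted p = 0.946). Its highest levels were 28.6 CPM in vehicle replicate 2 and 29.3 CPM in IL-33 replicate 3. Igkv8-24 was high in 1 tumor, vehicle replicate 3, with 399 of its 550 counts, and its log2 fold change was -2.16 (SE 1.43, edgeR unadjusted p = 0.149, adjusted p = 0.620) but 0.60 without that tumor and 0.67 with DESeq2.

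The 5 genes higher with the smallest p were Igkv4-80, Igkv3-7, Igkv13-84, Igkv10-96 and Igkv16-104. Igkv4-80 had 0 to 0.245 CPM in vehicle tumors against 53.2 CPM in IL-33 replicate 8, which held 83.8% of its CPM, with 8.82 CPM in IL-33 replicate 4 and at most 0.513 CPM in the others (log2 fold change 7.00, SE 1.81, edgeR unadjusted p = 0.00124, adjusted p = 0.418). Igkv4-80 had 7 counts over the vehicle group and passed the filter only through IL-33 tumors. Its low vehicle level is therefore partly fixed by the filter. The exact permutation test of this gene gave p = 0.0555. Its log2 fold change was 4.49 without IL-33 replicate 8, 4.46 with DESeq2 and 2.95 with voom (unadjusted p = 0.057). Igkv3-7 was spread over more tumors: it had 0 to 0.797 CPM in vehicle tumors against 6.34, 12.7, 2.52, 3.42 and 28.7 CPM in IL-33 replicates 3, 4, 5, 7 and 8, all above every vehicle tumor, and 0 to 0.182 CPM in the other 3. Its log2 fold change was 5.47 (SE 1.42, edgeR unadjusted p = 0.00125, adjusted p = 0.418, exact permutation p = 0.0169). Leaving out any 1 tumor kept this between 4.56 and 6.90.

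Igkv13-84 had no more than 3 counts in any vehicle tumor, against 6, 7, 83, 28 and 81 counts in IL-33 replicates 3, 4, 5, 7 and 8 and 0 in the other 3. Taking 3 counts per library as the floor, it was at least 7.38-fold higher with IL-33 (edgeR unadjusted p = 0.00171, adjusted p = 0.418, exact permutation p = 0.0256). With 3 counts over the whole vehicle group, Igkv13-84 also passed the filter only through IL-33 tumors. Its low vehicle level is partly fixed by the filter too. Igkv16-104 had 0 to 0.858 CPM in vehicle tumors and reached 22.9 CPM in IL-33 replicate 4 (log2 fold change 4.39, SE 1.36, edgeR unadjusted p = 0.00481, exact permutation p = 0.0345). The same 5 IL-33 tumors were above every vehicle tumor for Igkv16-104. Its log2 fold change was 2.95 without IL-33 replicate 4 and 1.87 with voom (unadjusted p = 0.169). Another pair of abundant genes showed no call: Igkv4-53, led by vehicle replicate 2 with 24.2 CPM, had a log2 fold change of -0.26 (SE 1.27, edgeR unadjusted p = 0.838), and Igkv3-5 one of 1.15 (SE 1.35, edgeR unadjusted p = 0.406). For Igkv3-5 it was 3.89 without vehicle replicate 2 (edgeR unadjusted p = 0.00949) and 0.14 without IL-33 replicate 7 (edgeR unadjusted p = 0.915).

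The lower genes named by the smallest p were Igkv8-24, described above, and Igkv1-122, Igkv4-78, Igkv9-129 and Igkv4-74, which had 9 to 15 counts over the whole vehicle group and 4 to 6 over the IL-33 treatment group. Their edgeR unadjusted p-values were between 0.207 and 0.390.

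The tumor in which a gene was highest was rarely shared evenly. For 60 of the 71 tested genes it was an IL-33 tumor and for 11 a vehicle tumor, and 54 of the 71 peaked in 4 tumors: IL-33 replicate 4 (25 genes), IL-33 replicate 7 (13), IL-33 replicate 8 (10) and vehicle replicate 2 (6). The filter partly fixed this split, since 18 of the 71 had at least 10 counts only in IL-33 tumors and 3 only in vehicle tumors. The same split over all genes was not computed, so it is a description only. IL-33 replicate 5, with more V reads than vehicle replicate 2, led for 5 genes. The highest tumor held a median of 43.6% of a gene's CPM, and for 25 genes it held more than 50%.

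Tumors were also compared by the overlap of their usage, the sum over genes of the smaller of their 2 shares, among the 11 tumors with at least 100 V counts. Over the 55 pairs the median overlap was 43.4%. The highest was 71.3%, between IL-33 replicates 1 and 2, followed by 63.3% between vehicle replicate 7 and IL-33 replicate 2. Medians were 48.2% for 6 vehicle pairs, 42.9% for 21 IL-33 pairs and 43.3% for 28 pairs across the groups. The heavy-chain V genes, which are other genes read from the same tumors, gave the same pair the highest overlap, 75.9% against a median of 35.4% over all pairs. In both tumors of that pair Ighv1-26 was the leading heavy-chain V gene (23.4% and 22.1% of heavy-chain V counts). Igkv1-99 had 86 and 17 counts in IL-33 replicates 1 and 2, or 12.6% and 9.94% of their V counts, against 2, 2 and 1 in 3 other tumors and 0 in the remaining 11. Igkv1-99 is 85.0% identical to its nearest copy. The count tables of any 2 tumors differed by far more than sampling noise (lowest chi-square per degree of freedom 8.79), and all 16 were counted as separate samples. Whether the pair came from 1 mouse, or whether reads of one library entered the other, cannot be told from the files, and the cause of the overlap was not tested. Igkv1-99 was 1 of the 20 genes higher with IL-33 (log2 fold change 4.15, SE 1.58, edgeR unadjusted p = 0.0177), but without IL-33 replicate 1 its log2 fold change was 2.19 (edgeR unadjusted p = 0.135), and DESeq2 gave 2.13 (unadjusted p = 0.452). With 4 counts over the vehicle group, Igkv1-99 also reached 10 counts only in IL-33 tumors, so its low vehicle level is partly fixed by the filter.

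**Figure D4:**
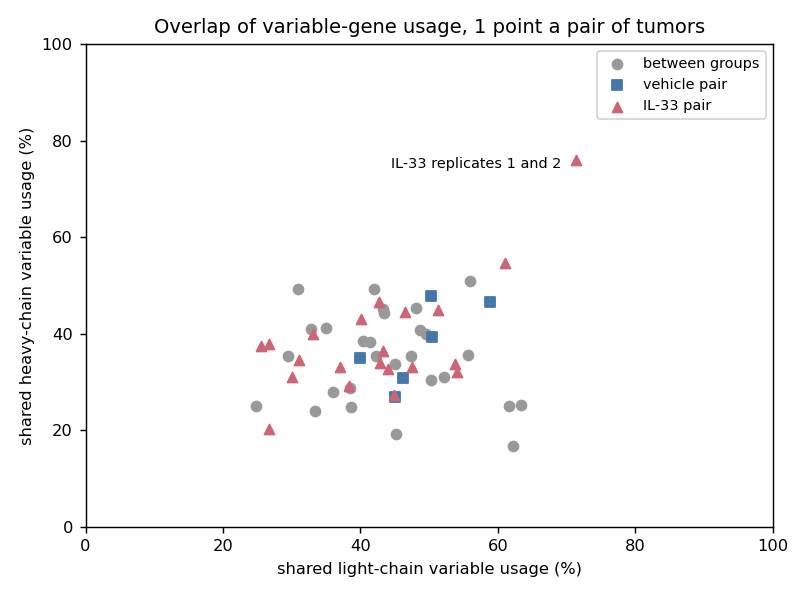
Overlap of light-chain V usage (horizontal axis, percent) and of heavy-chain V usage (vertical axis, percent) for the 55 pairs of 11 tumors with at least 100 light-chain V counts. The pair of IL-33 replicates 1 and 2 is the highest on both axes (71.3% and 75.9%).

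The 3 lambda V genes held a small share of the reads. They made up 5.70 ± 2.83% of light-chain V counts in vehicle tumors against 5.06 ± 3.48% in IL-33 tumors (SD, n = 8 each, exact permutation p = 0.704, adjusted p = 0.704), with 2 of 8 IL-33 tumors above the vehicle median. Those were IL-33 replicates 4 and 8, with 10.3% and 10.4%. The highest vehicle share, 11.9% in vehicle replicate 4, came from 8 of 67 counts (95% Wilson interval 6.18% to 21.8%). Iglv1 had a mean of 1.57 ± 2.22 CPM in vehicle tumors against 13.9 ± 21.2 CPM in IL-33 tumors (SD, n = 8 each), with 59.0 CPM in IL-33 replicate 4 and 32.7 in IL-33 replicate 8 (log2 fold change 3.05, SE 1.19, edgeR unadjusted p = 0.0204, adjusted p = 0.418, exact permutation p = 0.12). Without IL-33 replicate 4 its log2 fold change was 2.17 (edgeR unadjusted p = 0.078), and with voom 2.05 (unadjusted p = 0.161). Iglv2 (1.08, SE 1.20, edgeR unadjusted p = 0.382) and Iglv3 (1.42, SE 1.15, edgeR unadjusted p = 0.232) did not pass the threshold, although Iglv2 did without vehicle replicate 2 (2.90, edgeR unadjusted p = 0.0287).

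The constant genes gave a different lambda share. Counts of Iglc1, Iglc2 and Iglc3 made up 2.90 ± 1.71% of light-chain constant counts in vehicle tumors against 1.47 ± 0.641% in IL-33 tumors (SD, n = 8 each), and 0 of 8 IL-33 tumors were above the vehicle median of 2.75%. The exact permutation p was 0.0283, and 0.198 after adjustment over the 7 measures. In the vehicle group the highest share, 6.33% in vehicle replicate 1, came from 5 lambda counts, and without that tumor the difference of -1.43 percentage points was -0.94 (exact permutation p = 0.0592). In 5 of the 16 comparisons that left out 1 tumor this p was above 0.05, up to 0.0614. In IL-33 replicates 4 and 8 there were 2.36 and 2.11 lambda V counts per lambda constant count, against 0.495 and 0.423 kappa V counts per Igkc count, so the V and constant readings of lambda did not scale alike. The lambda ratio was the higher one in both groups, for example 1.87 against 0.666 in vehicle replicate 3. Only vehicle replicates 1 (0.600 against 0.662) and 5 (0.286 against 0.524) went the other way. Iglc1 had a log2 fold change of 2.60 (SE 1.08, edgeR unadjusted p = 0.0277), Iglc2 of 1.41 (SE 1.04, edgeR unadjusted p = 0.191) and Iglc3 of 0.87 (SE 1.01, edgeR unadjusted p = 0.399). Without IL-33 replicate 4 that of Iglc1 was 1.81 (edgeR unadjusted p = 0.103), without IL-33 replicate 8 it was 2.26 (edgeR unadjusted p = 0.058), and without vehicle replicate 2 that of Iglc2 was 2.64 (edgeR unadjusted p = 0.0212). Iglc2 and Iglc3 are close copies, and the handling of reads that fit several genes is not given in the sources used here.

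By subgroup, Igkv10 (3 genes) held 19.8% of all V counts, Igkv1 (9 genes) 18.0%, the single gene Igkv15-103 11.7%, Igkv4 (19 genes) 10.7% and Igkv3 (5 genes) 7.62%. Within Igkv10, 6864 of 7015 counts were on Igkv10-96. The Igkv1 share had a median of 28.3% in vehicle tumors against 25.2% in IL-33 tumors, Igkv10 had medians of 9.29% and 14.1%, and Igkv4 had 11.8% and 5.27%. These shares overlapped between the groups and were not tested.

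Along the kappa locus the reads lay mostly far from the joining segments. The 85 kappa genes spread over 18.4 to 3166 kb from Igkj1, with 32 transcribed in the direction of Igkc and 53 in the other. The 28 genes at 2000 to 3200 kb held a median of 55.4% of kappa V counts in the vehicle group (39.3% to 67.8%) and 69.2% in IL-33 tumors (46.5% to 86.0%). The 33 genes within 1000 kb held medians of 34.1% and 20.1%, and the 24 genes between held 13.7% and 6.13%. Of the 6 genes that led a tumor, only Igkv8-24 lay outside the farthest interval, at 505 kb. Because 1 gene can set a window's share (Igkv10-96 at 2090 kb, Igkv1-117 at 2601 kb), these are descriptions of position and carry no test. Genes transcribed with Igkc held a mean of 51.9 ± 9.05% and 54.0 ± 12.4% of kappa V counts (SD, n = 8 each).

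**Figure D5:**
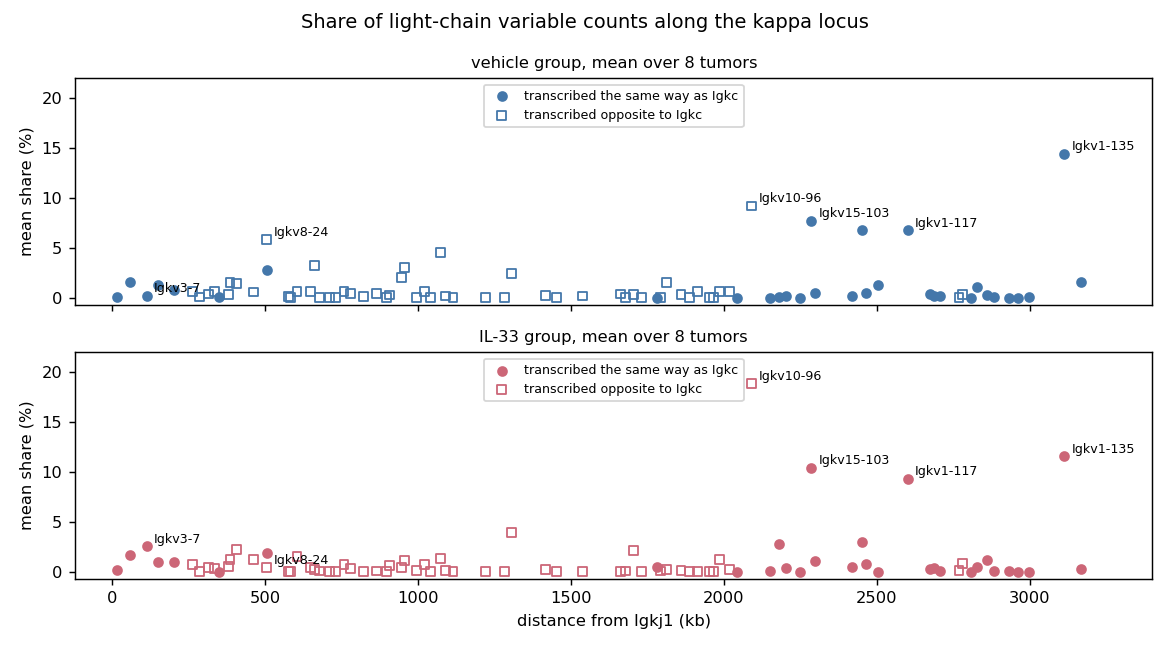
Mean share of light-chain V counts (vertical axis, percent, 8 tumors per panel) of each of the 85 kappa genes by distance from Igkj1 (horizontal axis, kb), with filled circles for genes transcribed in the direction of Igkc and open squares for the others. Igkv1-135 had the highest mean share in the vehicle group (14.4%) and Igkv10-96 in IL-33 tumors (18.9%).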

How the data were processed

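RNA of 8 vehicle and 8 IL-33 tumors was sequenced by a service company from poly(A)-selected RNA. The authors deposited, for each tumor, raw counts of reads per gene without normalization. The submitters' processing notes name HISAT2, featureCounts and the mm10 build; their versions, the strand setting and the handling of reads that fit several genes are not given in the sources used here. Samples were grouped by their labels, and no per-sample column was left unused. Gene identifiers were paired with GENCODE M21 (GRCm38) symbols for 22255 of 22298 genes, and the other 43 held 0.00434% of counts.

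All genes whose 16 counts summed to 10 or more were fitted with edgeR 4.0.16 (R 4.3.3; TMM, glmQLFit, glmQLFTest), with Benjamini-Hochberg adjustment over all genes tested. Log2 fold changes are IL-33 relative to vehicle. Composition measures and single genes on log2(CPM + 0.5) were compared by two-sided exact permutation tests of group means over all assignments (numpy 2.4.6). Rarefied numbers are hypergeometric expectations. Shares have 95% Wilson intervals. Groups with no more than 3 counts in any library were set to that floor. The edgeR fit was tested on simulated counts. The inverse Simpson index, rarefied numbers, permutation test and Wilson interval were checked on small examples. The other steps were not tested in this way.

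Named genes were those with the most counts in a tumor, the 10 with the highest mean CPM, the 5 higher and 5 lower with the smallest p, and all Iglv genes. Members and lists were chosen with earlier results of these data known. Alternatives were DESeq2 1.42.0, upper-quartile factors, no filter, filterByExpr, robust fitting, limma 3.58.1 voom with weighted samples, a block for the replicate number, scaling without immunoglobulin genes, other pseudocounts, detection limits and rarefaction depths, and leaving out each tumor. The overlap of usage, scaling by exon length, the V to constant ratio, the naming of Igkv1-99 and the fit without vehicle replicate 4 and IL-33 replicate 7 together were chosen after the data had been seen. Leaving out genes annotated as pseudogenes removed 0 genes. The values of 1 gene of the B cell list are not reported here.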

Additional observations from a re-analysis of the deposited data

Results flagged for a closer look

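Each value here stood apart from the other tumors of its group by Dixon's ratio. In all, 18 values did so among 66 groups checked, each of 8 tumors, or 7 for genes in 50 reads with IL-33. Chance gives about 1 in 20 groups where values are normally distributed. Many genes here had counts at or near 0, so that rate need not hold, and the genes are not independent of each other.

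For composition, vehicle replicate 8 had a top gene share of 35.5% beside 17.0% to 23.1% in the other vehicle tumors. IL-33 replicate 7 had an effective number of 18.8 genes beside 3.29 to 10.2 in the other IL-33 tumors. Vehicle replicate 4 had a lambda share of V counts of 11.9% beside 2.02% to 5.93%.

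Vehicle replicate 2 stood above the other vehicle tumors on the log2(CPM + 0.5) scale for Igkv1-117 (2.31), Igkv1-110 (2.62), Igkv3-7 (0.38), Igkv3-5 (3.47), Igkv13-84 (-0.55), Igkv16-104 (0.44), Igkv1-122 (0.44) and Igkv9-129 (0.073). The same tumor stood apart for Iglv2 (1.56), Iglc2 (2.89) and Iglc3 (1.02). It also had the highest summed level of B cell markers, 103 CPM, and the part of these cells in the values was not tested. Vehicle replicate 3 stood apart for Igkv8-24 (4.34), vehicle replicate 8 for Igkv4-78 (-0.0087), and IL-33 replicate 8 for Igkv4-78 (-0.50) and Igkv4-74 (-0.59), the last 3 from few counts. Few counts also lay behind Igkv13-84 (3) and Igkv9-129 (9) in vehicle replicate 2. Both genes were at 0 in the other vehicle tumors, so any count would have stood apart.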

How the results depend on the processing

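The number of V genes higher with IL-33 at an unadjusted p under 0.05, 20 of 71, was 3 with filterByExpr, which kept 8 V genes (498 of 12800 for all genes), 7 with voom and 7 with the replicate block (246 of 16817 for all genes), and 14 to 37 when each tumor was left out (37 without vehicle replicate 2). Without a filter it was 23 of 88 (1848 of 18774 for all genes), and without vehicle replicate 4 and IL-33 replicate 7 together 18 of 67 (330 of 15744). The number lower was 0 except for 1 with voom, and adjusted calls stayed at 0 in every fit. Expression gave no clear pairing of tumors by replicate number. Correlations of same-numbered tumors lay between -0.32 and 0.35, with 4 of 8 over 0.1, and 1 vehicle tumor was closest to its own number. Whether same-numbered tumors shared a batch cannot be told from the labels. Of the 7 genes called under the block, 5 were among the 20. Under the block 4 named or constant genes lost their call: Igkv1-117 (log2 fold change 1.85, edgeR unadjusted p = 0.335), Igkv4-80 (3.59, edgeR unadjusted p = 0.0864), Iglv1 (2.42, edgeR unadjusted p = 0.106) and Iglc1 (1.72, edgeR unadjusted p = 0.162); with voom Iglc1 had 1.25. Leaving out each tumor gave differences of -2.60 to -0.77 genes in 50 reads, 5.61 to 11.2 percentage points of top share, -3.58 to -1.35 in effective number, -1.40 to 0.25 points of lambda V share (0.25 without vehicle replicate 4), -1.67 to -0.94 points of lambda constant share and -0.23 to 0.29 in the log2 ratio of V to constant counts (-0.23 without vehicle replicate 4). Lambda share from constant genes differed by -1.43 points (exact permutation p = 0.0283), and with the replicate block by -1.43 (exact sign-flip p = 0.0859). Single genes changed sign as follows: Igkv1-135 had log2 fold changes of -0.43 (without IL-33 replicate 3) to 1.44 when a tumor was left out; Igkv8-24 had 0.67 with DESeq2, 0.18 with the block and -2.80 to 0.60 when a tumor was left out (0.60 without vehicle replicate 3); Igkv4-53 had 0.69 with voom, 1.64 with the block and -0.72 to 1.98 when a tumor was left out (1.98 without vehicle replicate 2); Igkv3-5 had -0.036 without vehicle replicate 4 and IL-33 replicate 7; Igkv9-129 had 0.20 with the block. The cause of these changes was not tested, beyond the tumors left out. For the named and constant genes, 512 of the refitted values kept their direction and side of the threshold, 26 lost it, 11 gained it and 9 changed sign. In the 5 tumors with under 100 V reads, counting error limits the shares.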
